A study of Mus musculus with 2 samples.

Results

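The neuropilin, semaphorin and plexin genes described here are 10 genes of a ligand and receptor system in regulatory T (Treg) cells: the neuropilins Nrp1 and Nrp2, the semaphorins Sema4a, Sema4b, Sema4d and Sema7a, and the plexins Plxna1, Plxnb2, Plxnc1 and Plxnd1. They were taken by gene name from the count tables, where each had 1 row among 34745 rows, and all 10 reached 1 CPM (the count relative to the scaled library total), the filter used here, in 1 library or both. The study compared Treg cells, sorted from spleen as CD4+ cells positive for YFP, the fluorescent reporter tied to Foxp3, between C57BL/6 mice 2 weeks old that carried poh1+/+ Foxp3Cre+ (wild type) and those that carried poh1fl/fl Foxp3Cre+ (knockout). Both groups carried the Cre allele, which is active in Foxp3-expressing cells, so the deletion is driven in those cells and passed on to their descendants. There was 1 library per genotype, and the sources used here do not say whether several mice were pooled. No difference therefore has a replicate check and no p-value is given. A range in parentheses is a 95% interval for counting error and leaves out the spread between mice. Where a pair of values is given, the wild-type library comes first.

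Semaphorins are secreted or membrane-bound proteins that were first known as guidance cues of growing nerve fibres, and plexins are their main receptors, with a cytoplasmic domain that acts on small GTPases. Neuropilins have a short cytoplasmic tail and act as co-receptors, for secreted semaphorins together with plexins and for vascular endothelial growth factors together with their receptor kinases. In mice, Nrp1 is used as a surface marker of Treg cells that arise in the thymus, and its binding of Sema4a has been described as a signal that keeps Treg cells stable. Sema4d, also called CD100, is a surface protein of resting T cells that binds plexins of the B class and, on B cells, CD72. Sema7a is anchored to the membrane by a lipid and binds Plxnc1 and integrins that contain the beta-1 chain.

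Library totals were 18124611 and 14544212 counts. Psmd14, the mouse gene of POH1, a deubiquitinase of the proteasome lid, had 1619 and 463 counts, or 89.4 and 31.8 CPM, which was lower in the library labelled knockout. The Treg markers Cd3e, Cd4, Foxp3, Il2ra, Ctla4 and Ikzf2 summed to 4612 and 4864 CPM, so the sorted cell type was present in both libraries. The sums hide opposite moves, with 0 past the rule given below. Foxp3 was at 671 and 1073 CPM and Il2ra at 990 and 1530 CPM. Ctla4 was at 1120 and 703 CPM and Ikzf2 at 825 and 526 CPM, while Cd3e (318 and 308 CPM) and Cd4 (688 and 724 CPM) were nearer to equal. Markers of other cells were far lower and moved both ways between the libraries. The 7 B cell markers summed to 144 and 38.5 CPM, with 6 of 7 lower, the 7 erythroid markers to 68.5 and 18.3 CPM, with 5 lower, and the 6 neutrophil markers to 11.7 and 3.92 CPM, with 1 of 3 measured lower. The 7 dendritic cell markers summed to 57.0 and 59.0 CPM, with 3 lower, of which Xcr1 and Clec9a were at 0 in the knockout library. The 7 macrophage and monocyte markers summed to 135 and 187 CPM with 0 past the rule given below, and the 2 CD8 T cell markers to 18.8 and 47.4 CPM, with 1 higher. The 7 endothelial and stromal markers summed to 177 and 189.8 CPM, nearly all from Pecam1, with 3 of 5 measured lower and Tek, Pdgfrb and Vwf at 0 in the knockout library. The NK cell markers summed to 10.2 and 13.5 CPM and the platelet markers to 2.87 and 4.12 CPM. The part of these cells in the values below was not tested, and in such bulk RNA fewer cells of a type cannot be told apart from less RNA per cell.

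Across the 10 genes, Nrp1 and Plxnd1 were lower and Sema4d was higher in the knockout library, and the other 7 were nearer to equal. A gene was called higher or lower where its counting interval lay wholly beyond 2-fold, a rule of size that stands in for a test. By it, 1 of the 10 genes was higher and 2 were lower, against 11.0% of 13464 measured genes called in either direction, 4.34% higher and 6.63% lower. With a limit of 1.5-fold, 1 was higher and 3 lower, Sema4b being added, against 21.9% of measured genes called, 9.58% higher and 12.3% lower. Over the 10 genes the log2 ratio (knockout over wild type) had a median of -0.27, and over all measured genes of -0.01, whose quartiles were -0.44 and 0.39. By receptor and ligand, the 4 plexins all had ratios below 1, 3 of the 4 semaphorins had ratios above 1, and the neuropilins were split. Since the set has 10 genes, each gene called moves the share of the set by 10 percentage points, and the share is not a result about the set.

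**Figure D1:**
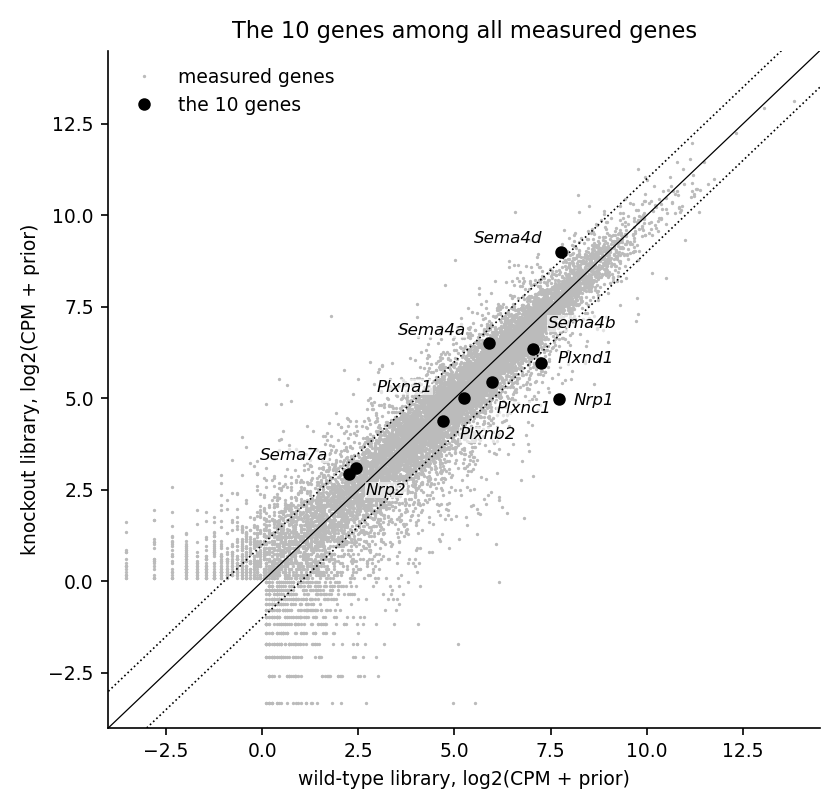
Each point is 1 of the 13464 measured genes, with log2(CPM + prior) in the wild-type library on the x axis and in the knockout library on the y axis. Large points are the 10 genes, the solid line marks equal levels and the dotted lines a 2-fold difference. Nrp1 and Plxnd1 lie below the lower dotted line and Sema4d above the upper one.

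Among the neuropilins, Nrp1 was much lower in the knockout library while the weakly expressed Nrp2 was not. Nrp1 (ENSMUSG00000025810.9, chromosome 8, 128358604 to 128503363, plus strand, mm10) had 3821 and 460 counts, which is 211 and 31.6 CPM. The knockout level was 6.67-fold lower (6.05 to 7.36), and 2.15% of measured genes had a lower ratio. Nrp2 (ENSMUSG00000025969.15, chromosome 1, 62703285 to 62818695, plus strand), a receptor of Sema3f and of VEGF-C, had 86 and 111 counts, 4.75 and 7.63 CPM. Its ratio was 1.61 (1.202 to 2.16), above 1 and not past the rule. The intervals of the Nrp1 and Nrp2 ratios were far apart, so the 2 genes of the family differed in direction by more than counting error. Per length of the gene, in the authors' FPKM (fragments relative to gene length and library total), Nrp1 was 104.5 times Nrp2 among wild-type cells (84.4 to 131) and 9.75 times among knockout cells (7.91 to 12.1). These 2 quotients depend on the lengths behind the FPKM, and with the union of exons in GENCODE M21 as the length they were 53.8 and 5.02. Nrp1 remained the more abundant neuropilin in both libraries, with 99.1% and 90.7% of the summed FPKM of the pair. These shares depend on the same lengths, and with the union of exons that of Nrp1 would be smaller.

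Exons of Nrp1 overlap those of a microRNA gene, Mir1903, over 0.818% of their length, and those of Nrp2 overlap no other gene in GENCODE M21. Of 9820 other genes at 5 CPM or more, the 3 with log2 CPM closest to Nrp1 over the 2 libraries were Rora, a nuclear receptor gene, at a distance of 0.33, Uhmk1 at 0.43 and Pear1 at 0.52. Rora was at 175 and 35.9 CPM, so the nearest gene had a smaller difference than Nrp1. The 3 genes closest to Nrp2 were Nars2, Rbks and Zfp882, at distances of up to 0.118. With 2 libraries, likeness over a pair of values is weak, and it only says which genes had similar counts in both.

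The start region of Nrp1 is shown because Nrp1 had the largest difference of the 10 genes. It spans 250 bases before to 50 bases after the transcript start in RefSeq (GRCm38.p6, the build also called mm10), at chr8:128358823-128359122 on the plus strand, and its start lies inside the longer GENCODE gene. Capitals mark a GC box, GGGCGG or its reverse complement, the sole match there among 6 motifs searched on both strands.
Nrp1: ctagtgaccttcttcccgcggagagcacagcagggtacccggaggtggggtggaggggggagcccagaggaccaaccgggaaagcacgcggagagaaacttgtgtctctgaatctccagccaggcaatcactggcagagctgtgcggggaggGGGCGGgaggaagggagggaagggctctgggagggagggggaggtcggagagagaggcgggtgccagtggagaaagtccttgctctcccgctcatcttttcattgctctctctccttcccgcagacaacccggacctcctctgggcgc
The other motifs were TTCNNNGAA, the GAS element of STAT factors, GAAANNGAA, an IRF-type element, TGANTCA, the AP-1 site, TGTTTAC, a forkhead site, and TGTGGTT, a RUNX site. Windows were found for 9 of the 10 genes and none for Plxna1, 16 windows in all, as some genes have several starts. A GC box was present in 13 of the 16, against 35.7% of all 32851 windows in the table. Several of the 16 come from the same gene, and some of Sema4a overlap. They are too few to read a difference from that share. The number of CpG dinucleotides was 14 in the window of Nrp1, 37 in that of Nrp2 and 2 to 3 in the 3 of Sema4d. It was 4 to 14 for Sema4a, 26 and 28 for Sema4b, and 23 for Sema7a. Among the plexins it was 15 and 27 for Plxnb2, 30 for Plxnc1 and 23 for Plxnd1. The median over all windows was 7. The GC box contains a CpG, so these counts are not independent of it.

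Among the semaphorins, Sema4d had the highest level per length in both libraries and was the only 1 of the 4 called, higher in the knockout library. Sema4d (ENSMUSG00000021451.16, chromosome 13, 51685529 to 51793747, minus strand) had 3962 and 7496 counts, which is 219 and 515 CPM. Its ratio was 2.36 (2.27 to 2.45), and 93.6% of measured genes had a lower one. Sema4b (ENSMUSG00000030539.13, chromosome 7, 80186841 to 80226527, plus strand), a membrane-bound semaphorin, went the other way. It had 2389 and 1191 counts, which is 132 and 81.9 CPM, and was 1.61-fold lower (1.502 to 1.73). The lower bound of 1.502 put it at the edge of the 1.5-fold limit and inside the 2-fold limit.

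Sema4a (ENSMUSG00000028064.17, chromosome 3, 88435959 to 88461182, minus strand), the described ligand of Nrp1 on Treg cells and a costimulator of T cells, had 1082 and 1330 counts, which is 59.7 and 91.4 CPM. Its ratio was 1.53 (1.41 to 1.66), in the opposite direction to that of Nrp1. Sema7a (ENSMUSG00000038264.8, chromosome 9, 57940112 to 57962865, plus strand) had 98 and 124 counts, 5.41 and 8.52 CPM. Its ratio of 1.58 (1.199 to 2.08) was close to that of Sema4a but rested on far fewer counts, and its interval reached past 2-fold. Genes closest to Sema4a in log2 CPM were Gsr, the gene of glutathione reductase, Adrm1, a ubiquitin receptor of the proteasome, and Ddb2, at distances of up to 0.0321. Exons of Sema4a overlap the microRNA gene Mir7011 over 1.35% of their length, and those of the other 3 semaphorins overlap no other gene.

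**Figure D2:**
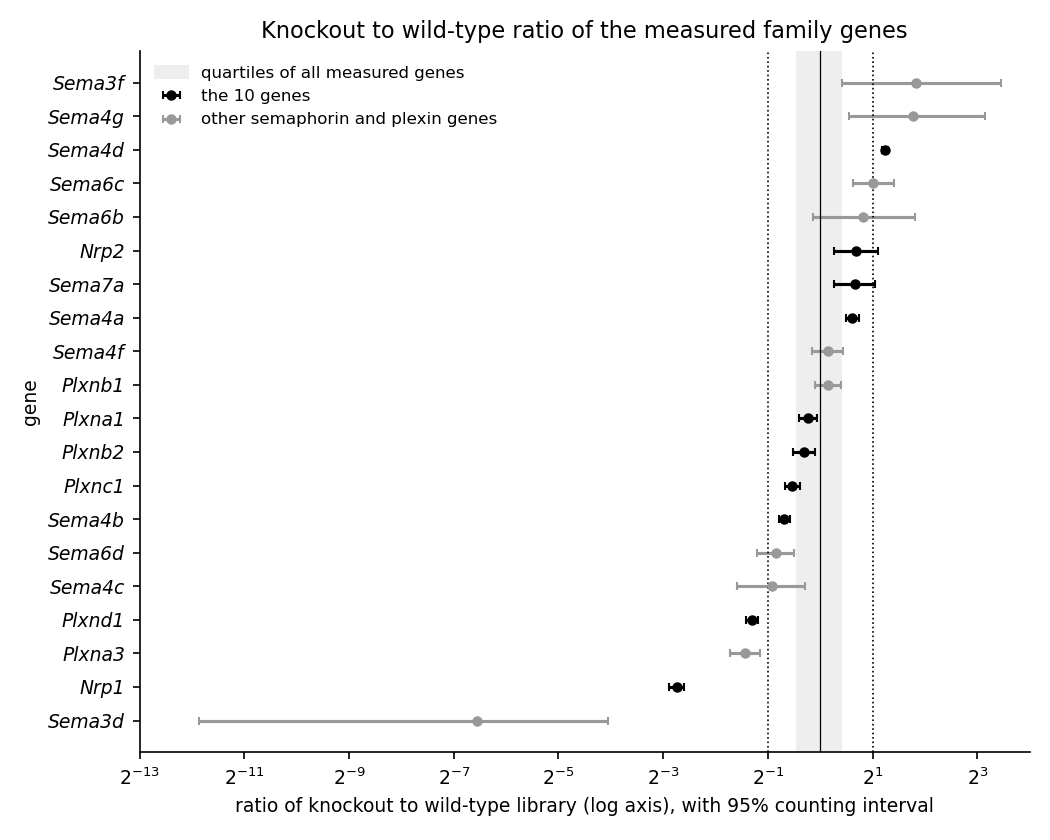
The x axis is the ratio of knockout to wild-type CPM on a log axis with its 95% counting interval, and each row is a measured neuropilin, semaphorin or plexin gene. Black points are the 10 genes and grey points the other family members, dotted lines mark 2-fold and the shaded band spans the quartiles of all measured genes. Sema4d (2.36), Plxnd1 (0.405) and Nrp1 (0.150) are the black points whose whole interval lies beyond 2-fold.

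All 4 plexins were at a lower level in the knockout library, by very unequal amounts, and Plxnd1 alone was called. Plxnd1 (ENSMUSG00000030123.15, chromosome 6, 115954811 to 115995005, minus strand), the receptor of Sema3e and a guidance receptor of blood vessels and thymocytes, had 2771 and 902 counts, which is 153 and 62.0 CPM. It was 2.47-fold lower (2.29 to 2.66), and 8.33% of measured genes had a lower ratio. Plxnc1 (ENSMUSG00000074785.5, chromosome 10, 94790866 to 94944835, minus strand), the receptor of Sema7a, had 1143 and 635 counts, 63.1 and 43.6 CPM, and was 1.45-fold lower (1.31 to 1.59). The ratio of Plxnc1 therefore lay below 1 beyond counting error, with an interval that spans 1.5-fold. Plxnb2 (ENSMUSG00000036606.17, chromosome 15, 89155549 to 89180788, minus strand), a receptor of class 4 semaphorins, had 470 and 306 counts, 25.9 and 21.03 CPM, a ratio of 0.811 (0.700 to 0.938). Plxna1 (ENSMUSG00000030084.11, chromosome 6, 89316314 to 89362620, minus strand), a partner of neuropilins in receptors of secreted semaphorins, had 687 and 470 counts, 37.9 and 32.3 CPM, a ratio of 0.852 (0.756 to 0.960). Both ratios lay inside the quartiles of all measured genes. Plxna1 and Plxnd1 are on the same chromosome, and exons of Plxna1 overlap those of the antisense gene Gm26811 over 10.7% of their length, so reads of the 2 genes cannot be told apart there in libraries without strand. Exons of Plxnc1 overlap those of Gm48718 over 1.38% of their length. Genes closest to Plxnd1 in log2 CPM were Map7d1, Smc2, a subunit of condensin, and Tmem154, at distances of up to 0.124.

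The start regions of Plxnd1 and Plxnc1 are shown because they hold the only matches to the IRF-type element GAAANNGAA among the 16 windows, an element present in 8.56% of all windows. Capitals mark that element and the GC boxes, and positions count from the transcript start. The Plxnd1 window is chr6:115994956-115995255 on the minus strand, with the IRF-type match at -242, and the Plxnc1 window is chr10:94944796-94945095 on the minus strand, with the match at -118.
Plxnd1: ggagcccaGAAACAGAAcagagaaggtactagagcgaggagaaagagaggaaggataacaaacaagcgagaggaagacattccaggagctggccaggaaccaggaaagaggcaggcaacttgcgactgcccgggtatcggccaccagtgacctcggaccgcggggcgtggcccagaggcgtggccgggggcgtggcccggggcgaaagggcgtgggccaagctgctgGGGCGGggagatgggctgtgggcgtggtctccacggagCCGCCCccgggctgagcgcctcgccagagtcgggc
Plxnc1: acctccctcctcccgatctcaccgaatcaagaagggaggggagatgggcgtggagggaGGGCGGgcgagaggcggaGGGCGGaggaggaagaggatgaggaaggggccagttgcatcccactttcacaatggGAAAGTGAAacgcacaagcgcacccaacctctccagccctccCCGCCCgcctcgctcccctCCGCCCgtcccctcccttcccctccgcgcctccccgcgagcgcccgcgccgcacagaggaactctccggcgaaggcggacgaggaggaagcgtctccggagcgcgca
Of these 2 genes Plxnd1 was called lower and Plxnc1 was not, the window of Nrp1 held no such match, and 2 of 16 windows is too few to set against the share over all windows. None of the 16 windows, which leave out Plxna1, held the GAS, forkhead or RUNX letters. Of all windows, 8.30%, 3.65% and 5.27% hold them. The AP-1 letters were in 1 window of Sema4d, against 7.81% of all windows. A match describes letters in these windows and is no evidence of binding.

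Levels can be compared between genes only per length, and in the deposited FPKM the order of the 10 genes changed at its top. In the wild-type library Nrp1 came first at 35.7 FPKM, followed by Sema4d (19.99), Plxnd1 (18.6), Sema4b (15.9), Plxnc1 (7.62), Sema4a (6.40), Plxna1 (3.33), Plxnb2 (2.87), Sema7a (1.64) and Nrp2 (0.342). With the lengths behind the FPKM, each neighbour in that order differed from the next beyond counting error. The closest was Sema4d over Plxnd1 at 1.07 (1.02 to 1.13). In the knockout library Sema4d came first at 47.1 FPKM, followed by Sema4b (9.88), Sema4a (9.80), Plxnd1 (7.55), Nrp1 (5.35), Plxnc1 (5.28), Plxna1 (2.84), Sema7a (2.59), Plxnb2 (2.33) and Nrp2 (0.549). In that FPKM order Sema4b and Sema4a, Nrp1 and Plxnc1, Plxna1 and Sema7a, and Sema7a and Plxnb2 did not differ beyond counting error. Sema4d stood 4.77 times above the next gene (4.49 to 5.08), whereas the highest gene of the wild-type library, Nrp1, stood 1.78 times above the next (1.71 to 1.87).

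The order depends on the gene lengths that the authors used. Those lengths, implied by count and FPKM, were 0.604 times the union of exons in GENCODE M21 for Nrp1 and 1.42 times for Sema4d. With the union of exons as the length, Sema4d and not Nrp1 came first in the wild-type library, at 28.5 against 21.5 in the same unit, and Nrp1 ranked 3 of 10. With the longest transcript as the length Nrp1 was first again. In the wild-type library, 2 further neighbour pairs changed places with both other lengths. Sema4b was above Plxnd1, at 23.3 against 20.9 with the union of exons and 33.4 against 22.1 with the longest transcript. Sema4a was above Plxnc1, at 11.04 against 7.55 and 18.6 against 8.64. Sema4d was first in the knockout library with each of the 3 lengths, and Nrp2 last in both libraries. Nrp1 ranked 7 of 10 in the knockout library with the union of exons, at 3.23 against 5.23 for Plxnc1. With the longest transcript it ranked 5, at 8.68 against 5.98 for Plxnc1, so their near-equal FPKM also depends on the lengths.

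**Figure D3:**
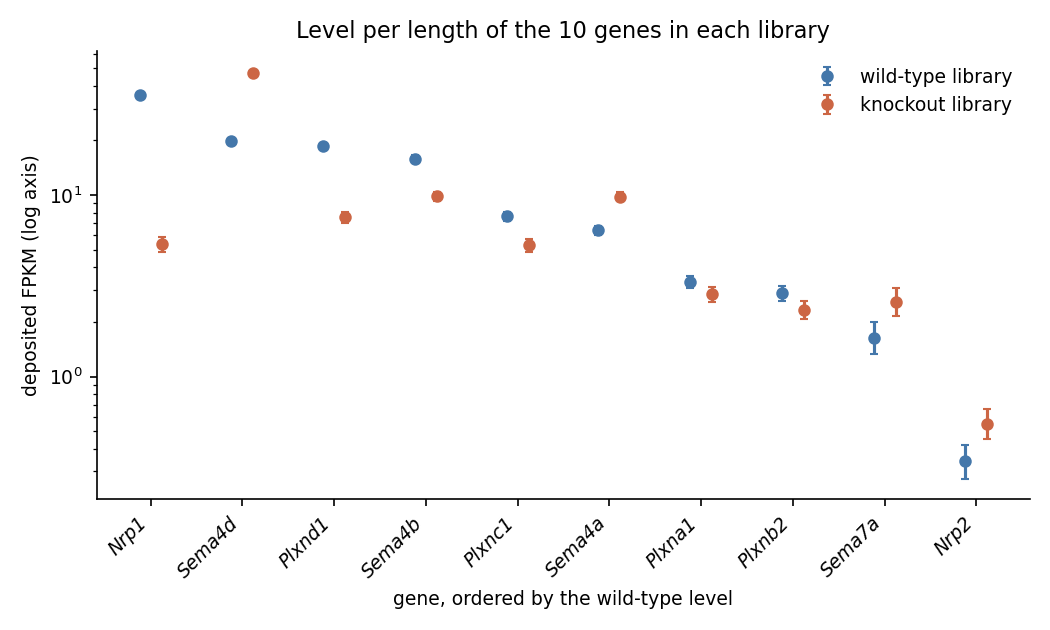
The y axis is the deposited FPKM on a log axis and the x axis lists the 10 genes in the order of their wild-type level. Points are single libraries, with bars for the 95% counting interval of the count. Nrp1 goes from 35.7 in the wild-type to 5.35 in the knockout library and Sema4d from 19.99 to 47.1.

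Quotients of 2 genes within a library do not depend on the scaling between libraries. Their size depends on the gene lengths, while their change between libraries does not and only restates the ratios of both genes. Nrp1 over Sema4a, its described ligand, went from 5.58 (5.22 to 5.98) to 0.547 (0.491 to 0.608) in FPKM, a 10.2-fold change of the quotient. With the union of exons as the length the same quotient went from 1.95 to 0.191, and with the longest transcript from 3.11 to 0.304. Nrp1 was thus above Sema4a in the wild-type library and below it in the knockout library with each of the 3 lengths. Nrp1 over Sema4d went from 1.78 (1.71 to 1.87) to 0.114 (0.103 to 0.125), a 15.7-fold change.

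For Sema4d and plexins of the B class, Sema4d over Plxnb2 went from 6.96 (6.32 to 7.67) to 20.2 (18.04 to 22.7). Sema4d over Plxnb1, its high-affinity receptor, went from 14.3 (12.7 to 16.2) to 30.6 (27.0 to 34.9). With the longest transcript as the length these were 12.2 and 35.5 over Plxnb2 and 27.2 and 58.1 over Plxnb1. Sema4b, another class 4 semaphorin, did not share this direction, as Sema4b over Plxnb2 went from 5.53 (5.01 to 6.12) to 4.24 (3.73 to 4.82), or from 8.36 to 6.40 with the longest transcript. Plxnc1 over Sema7a went from 4.65 (3.78 to 5.77) to 2.04 (1.68 to 2.49). Plxnd1 over Sema4a, for which it has been described as a receptor, went from 2.91 (2.71 to 3.12) to 0.770 (0.707 to 0.839). With the union of exons that quotient went from 1.90 to 0.502, and with the longest transcript from 1.19 to 0.315. The pairs share genes and libraries, so they are not independent of one another.

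Summed over whole families in FPKM, semaphorin transcript was more abundant and plexin transcript less abundant in the knockout library. The 20 semaphorin genes summed to 48.3 and 73.6 FPKM, and the 9 plexin genes to 35.9 and 20.4 FPKM. These sums, and the shares of them below, depend on the gene lengths behind the FPKM. Sema4d went from 41.4% to 64.0% of the semaphorin sum, while Sema4b went from 32.9% to 13.4%. The share of Sema4a was 13.3% in both, and that of Sema7a 3.40% and 3.51%. Plxnd1 went from 51.8% to 37.0% of the plexin sum and Plxnc1 from 21.2% to 25.9%. The semaphorin sum without Sema4d was 28.3 and 26.5 FPKM, so the larger sum rested on that 1 gene. The plexin sum without Plxnd1 was 17.3 and 12.8 FPKM, lower in the knockout library also without its most abundant gene.

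**Figure D4:**
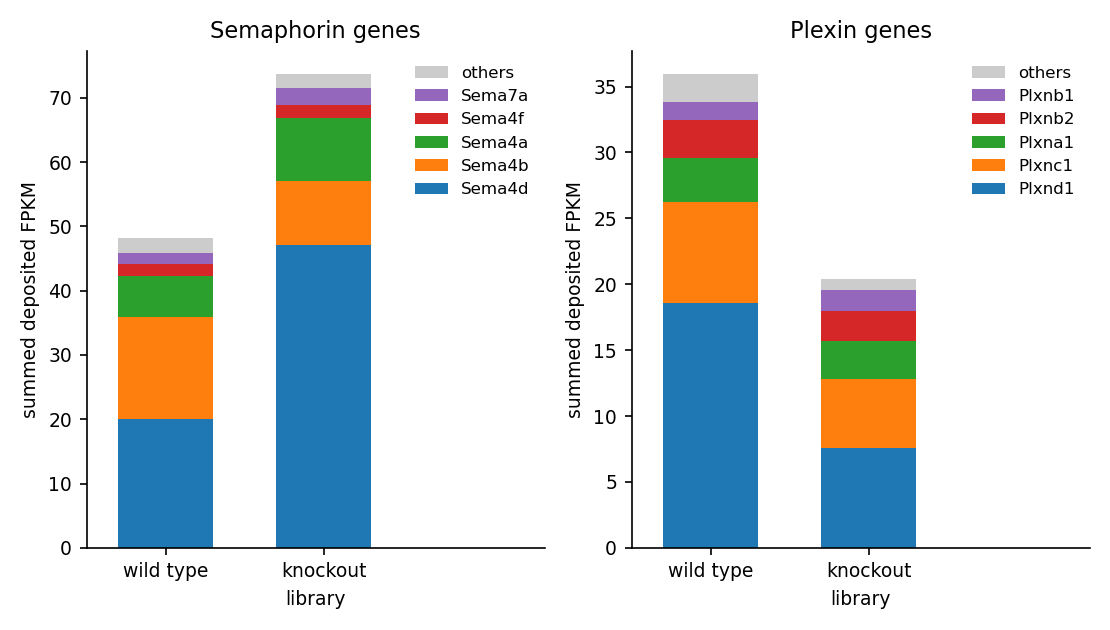
Bars show the deposited FPKM summed over the 20 semaphorin genes (left) and the 9 plexin genes (right) in each library, on axes that start at 0. Colours mark the 5 genes with the largest share and grey the others. The semaphorin bar grows from 48.3 to 73.6, while the sum without Sema4d is 28.3 and 26.5, and the plexin bar shrinks from 35.9 to 20.4.

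Of the 21 other semaphorin and plexin genes, 10 were measured. By the 2-fold rule 2 of these were lower and 0 higher, against 6.63% lower and 4.34% higher among all measured genes. With 10 genes, that share is not a result about them. Plxna3, a receptor of secreted semaphorins together with neuropilins, had 461 and 137 counts, 25.4 and 9.42 CPM, and was 2.70-fold lower (2.23 to 3.29). Sema3d, a secreted semaphorin that reached 1 CPM only in the wild-type library, had 117 and 1 counts, a ratio of 0.0106 (0.000267 to 0.0605). With Nrp1 and Plxnd1, these were the family genes lower by the rule. Sema6d was at 12.4 and 6.87 CPM and Sema4c at 3.92 and 2.06 CPM, with ratios of 0.556 (0.435 to 0.707) and 0.526 (0.331 to 0.817). Sema6c was at 4.97 and 9.97 CPM, a ratio of 2.01 (1.53 to 2.64), and Sema6b at 0.938 and 1.65 CPM, a ratio of 1.76 (0.906 to 3.49). Plxnb1 and Sema4f had ratios of 1.10 (0.927 to 1.31) and 1.11 (0.901 to 1.36), at 15.5 and 17.1 CPM and at 11.3 and 12.5 CPM. Sema3f, with 6 and 17 counts, and Sema4g, with 8 and 22 counts, had ratios of 3.53 (1.33 to 10.9) and 3.42 (1.47 to 8.90), which their counts left wide. The remaining 11 genes had at most 16 counts in either library, and 4 of them, Plxna4, Sema3c, Sema3g and Sema5b, had 0 in both, which allows up to 0.166 and 0.206 CPM. The 7 secreted class 3 semaphorins thus had few counts in both libraries, apart from the 117 of Sema3d in the wild-type library. The others had at most 6 counts there. In the knockout library the most of any of the 7 were the 17 counts of Sema3f, or 1.17 CPM.

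The other receptors of semaphorins and neuropilins included 3 of 10 measured genes lower and 0 higher, against 6.63% and 4.34% of all measured genes. Their median log2 ratio was -0.13. Of the 3 lower, Itga1 (2.93 and 0.137 CPM) and Erbb2 (4.58 and 0.481 CPM) reached 1 CPM only in the wild-type library. The share called in so short a list is not a result about it. Itgb1, the integrin beta-1 chain through which Sema7a acts, had 15859 and 2282 counts, 875 and 157 CPM, and was 5.58-fold lower (5.34 to 5.83). It lies on chromosome 8 at 128685654 to 128733200 on the plus strand, past the end of Nrp1 on the same strand. Its partner chain gene Itga1 had 53 and 2 counts, and the receptor kinase gene Erbb2, which can associate with B-class plexins, had 83 and 7 counts, 9.52-fold lower (4.42 to 24.4). The fold of Itga1 was 21.3 (5.61 to 180). Sema7a thus had a ratio above 1, at 1.58 (1.199 to 2.08), where those of the beta-1 integrin gene and Plxnc1 were below 1. The Sema4d receptor gene Cd72 was at 12.97 and 12.9 CPM, a ratio of 0.996 (0.818 to 1.21), in libraries whose B cell markers differed as given above. Exons of Cd72 overlap those of other genes over 41.6% of their length, and how reads there were assigned is not known. Among the other neuropilin ligands 0 of 4 measured genes were called, with a median of -0.75. Since 11.0% of all measured genes were called, a count of 0 in so short a list says nothing about it. Tgfb1, which also binds Nrp1, had the most counts of them, at 318 and 236 CPM, with a ratio of 0.742 (0.711 to 0.774).

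In the list of signalling genes downstream of plexins and neuropilins, 3 of 32 measured genes were lower and 0 higher, 9.38% against the 11.0% of all measured genes, and the median log2 ratio was -0.22. Farp1, a guanine nucleotide exchange factor gene of the plexin pathway, had 521 and 78 counts and was 5.36-fold lower (4.22 to 6.89). Crmp1, a collapsin response mediator protein gene, had 1542 and 277 counts and was 4.47-fold lower (3.93 to 5.10). Rnd3, a small GTPase gene, had 124 and 29 counts and was 3.43-fold lower (2.28 to 5.34). Arhgef11, the gene of a guanine nucleotide exchange factor that binds B-class plexins, was at 92.2 and 42.5 CPM, with a ratio of 0.462 (0.420 to 0.507) whose upper bound lay just inside 2-fold. Rras2 was at 57.9 and 121 CPM, a ratio of 2.09 (1.93 to 2.26). The gene of the list with the most counts, Cfl1, which encodes the actin-severing protein cofilin, was at 1251 and 923 CPM, a ratio of 0.738 (0.722 to 0.754).

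Of proteases that cleave semaphorins or neuropilins, 0 of 5 measured were called, against 11.0% of all measured genes, which is likewise too few genes to read, with a median of -0.01 whose sign changed with the scaling. Adam10 was at 213 and 170 CPM, a ratio of 0.801 (0.761 to 0.843), with the most counts of the list and the ratio farthest from 1.

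**Figure D5:**
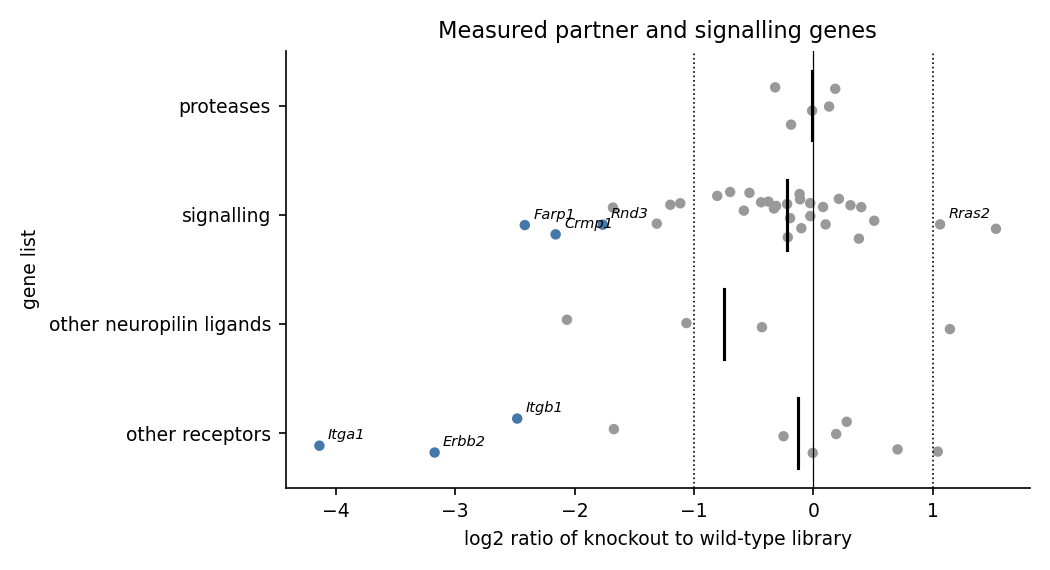
Each point is a measured gene of 4 lists, with the log2 ratio of knockout to wild-type library on the x axis and the list on the y axis, spread vertically at random. Blue points are genes called lower, grey points are genes not called, vertical bars are list medians and dotted lines mark 2-fold. The called points are Itga1, Itgb1 and Erbb2 among the other receptors and Farp1, Crmp1 and Rnd3 among the signalling genes.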

How the data were processed

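RNA of sorted Treg cells was measured in 2 libraries. Per the submitters' processing notes, reads were handled by TopHat and HTSeq on mm10. Tool versions, gene annotation, strand setting and multi-mapping rules are not stated there. Per the labels, the kit was Illumina TruSeq RNA v2, which does not mark strand. Per the file headers, the authors deposited a whole-number count and an FPKM value for each gene name. Over 9427 genes with at least 100 counts in both libraries, count divided by FPKM differed between libraries by one factor, 0.802, the ratio of the totals, so FPKM served only to compare genes per length. No neuropilin, semaphorin or plexin name was shared by several rows.

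Counts were scaled with TMM factors (edgeR 4.0.16, R 4.3.3). Ratios carry exact 95% conditional-binomial (Clopper-Pearson) intervals and single levels exact Poisson intervals. Both treat reads as independent and cover counting error only. Without molecular identifiers several reads can stem from 1 molecule, and the intervals are too narrow where that is so. Where a count was 0, the level it allows is stated as that of 3 counts, and no ratio or interval used this limit. A prior of 0.5 counts, scaled to library size, entered each log2 ratio. The interval script was checked on simulated Poisson counts without further spread. That checks the code and not how well the intervals suit real libraries. Other scalings (totals, DESeq2 1.42.0 median of ratios, upper quartile), filters, limits and gene lengths were tried.

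All 10 genes are named, with every measured gene of the other semaphorins and plexins. Of each further list, the members called and the member with the most counts are named. The 3 genes nearest to Nrp1, Plxnd1, Nrp2 and Sema4a were sought above a minimum of 5 CPM in either library, without predicted, small RNA and antigen receptor genes. Arhgef11, Rras2 and Cd72 were named after their values were seen. A further list of signalling genes is not reported here. Members and lists were chosen with earlier results of these data known. The list member Vegfd stands in the files as Figf. Gene coordinates and exon overlaps are from GENCODE M21, start regions from RefSeq (GRCm38.p6). Intervals were computed in Python 3.11.15 with scipy 1.17.1.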

Additional observations from a re-analysis of the deposited data

How the results depend on the processing

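All 50 values of the 10 genes under other scalings (plain totals, median of ratios, upper quartile), with 2 counts added or from the deposited FPKM stayed inside their counting intervals, with a spread of at most 0.05 on the log2 scale for any gene. Over all genes, the numbers higher and lower were 585 and 892, against 1290 and 1659 where the interval had to lie beyond 1.5-fold and 1206 and 1567 where the ratio itself, whatever its interval, lay beyond 2-fold. These rules are looser by construction. Without the filter on low counts, the median of the other receptors was -0.25, with 2 members higher (Flt1 and Mst1r, both at 0 counts in the wild-type library), and that of the other neuropilin ligands was -1.49, as genes with few counts entered. The log2 quotient of Nrp1 over Sema4d in the wild-type library was 0.84 with the authors' gene lengths, -0.40 with the union of exons and 0.25 with the longest transcript. In the knockout library it was -3.14, -4.38 and -3.73. The other 7 quotients of 2 genes that were tried with each length stayed on their side of 1 in both libraries. The order of all 10 genes did not hold with each length, as given above. The gene lengths were added after the lengths behind the FPKM were seen. No paired analysis was possible because there was 1 library per genotype. For the same reason no library could be left out. At 86 to 124 counts, Nrp2 and Sema7a cannot be placed on either side of 1.5-fold.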
